A study of Mus musculus with 4 samples.

Results

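The genes described here are p53, its paralogs p63 and p73, and the proteins that act on p53 most directly, 8 genes of the 24346 in the deposited table: Trp53, Trp63, Trp73, Mdm2, Mdm4, Ppm1d, Usp7 and Trp53bp1. They were taken by symbol, and each symbol has 1 row. RNA was measured in endothelial cells of the heart, labelled as coming from young C57BL/6 mice, purified by flow cytometry and used without culture. The tested genotype is labelled ECp53KO (libraries ECp53KO_170 and ECp53KO_172) and its control Ctrl, given as wild type (libraries Ctrl_178 and Ctrl_182). ECp53KO is read as loss of p53 in endothelial cells, from the series title. The age in weeks, the promoter that drives the deletion and the exons removed are not stated by the sources used here. Neither is the number of mice behind a library. The p-values below therefore measure the spread between libraries, which need not be that between single mice. The libraries of each group differ in Xist, an RNA of female cells described below, so they are not repeats of 1 sample. All levels are FPKM, fragment numbers scaled to transcript length and to library size, which allow genes to be compared per length.

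p53 is a transcription factor that is made and destroyed continuously and accumulates after DNA damage and other stress. MDM2 is the ubiquitin ligase that marks p53 for degradation, and its gene is itself switched on by p53, which closes a feedback loop. MDM4 resembles MDM2, pairs with it and holds back the transcriptional activity of p53. The phosphatase encoded by Ppm1d, another gene that p53 switches on, removes damage-induced phosphates from p53 and its kinases, the deubiquitinase USP7 removes ubiquitin from both MDM2 and p53, and 53BP1, the product of Trp53bp1, binds chromatin at DNA breaks. p63 and p73 share the DNA-binding fold of p53 and serve epithelial and neural development.

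The promoters of the members are shown because the feedback loop runs through p53 binding near its own target genes. RefSeq promoter sequences (GRCm38.p6) held 9 windows of 250 bases before a start site for 7 of the 8 genes. The p53 decamer, the 10-base unit of the p53 response element, was searched in its consensus form, which reads the same on both strands. It was found in 3 of the 9 windows, those of Mdm2, Trp53 and Ppm1d, and in 7.13% of the 32851 windows of all genes. The sequences below run 5′ to 3′ on the strand of the gene, with the decamer in capitals. In Ppm1d the capitals further 3′ mark the cyclic AMP response element TGACGTCA, which also reads the same on both strands, does not overlap the decamer, and was found in 1.55% of all windows and in 1 of the 9. For Mdm2 the stretch is chr10:117710759-117711008 on the minus strand, with the decamer beginning 186 bases before the start. For Trp53 it is chr11:69580256-69580347 on the plus strand, the gap between the first exons of Wrap53 and Trp53, with the decamer beginning 64 bases before the first base of the Trp53 gene model. For Ppm1d it is chr11:85311004-85311243 on the plus strand, with the decamer beginning 132 bases and the cyclic AMP element 85 bases before the start.
Mdm2: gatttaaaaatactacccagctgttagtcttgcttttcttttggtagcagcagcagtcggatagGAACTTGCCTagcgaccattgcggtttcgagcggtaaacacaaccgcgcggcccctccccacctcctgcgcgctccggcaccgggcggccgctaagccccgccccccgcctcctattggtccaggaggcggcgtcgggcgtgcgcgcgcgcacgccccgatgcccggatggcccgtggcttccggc
Trp53: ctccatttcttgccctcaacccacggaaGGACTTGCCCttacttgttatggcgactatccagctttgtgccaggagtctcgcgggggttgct
Ppm1d: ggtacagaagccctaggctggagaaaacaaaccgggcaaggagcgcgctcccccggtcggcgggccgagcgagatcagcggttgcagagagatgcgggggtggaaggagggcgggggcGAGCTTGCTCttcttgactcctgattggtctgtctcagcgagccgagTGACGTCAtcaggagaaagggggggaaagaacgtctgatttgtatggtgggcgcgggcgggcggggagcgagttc
A match describes these letters and is not a binding site. The second promoter of Mdm2, in its first intron, is the one through which p53 is known to act, and its bases are not among those shown. The windows of Mdm4, Usp7, Trp53bp1 and Trp73 held neither motif in these forms.

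The 4 libraries all had endothelial markers far above those of other cells, but differed in depth and in the other markers. The steps between low FPKM values put the depth near 11400000 and 9800000 fragments for ECp53KO_170 and ECp53KO_172 and near 11000000 and 22700000 for Ctrl_178 and Ctrl_182. They were sought between 8000000 and 40000000 fragments, bounds set after a wider search had landed on the step taken as 2 fragments in ECp53KO_172, so the fragment numbers below are estimates. Endothelial markers (8 genes, among them Cdh5, Pecam1 and Kdr) summed to 4820 to 5360 FPKM in ECp53KO, against 4490 to 4720 FPKM in Ctrl, which fits the labelled cell type. Pericyte and smooth muscle markers summed to 107 to 128 FPKM in ECp53KO, against 69.9 to 90.0 FPKM in Ctrl, with all 6 genes higher on average in ECp53KO. Cardiomyocyte markers (6 genes) summed to 152 to 255 and 134 to 153 FPKM, erythroid markers (5 genes) to 89.3 to 410 and 33.5 to 60.3 FPKM, fibroblast markers (6 genes) to 25 to 28.3 and 27.3 to 29.1 FPKM, and leukocyte markers (6 genes) to 1.83 to 6.95 and 3.34 to 7.44 FPKM, in ECp53KO and Ctrl in each case. Higher on average in ECp53KO were also 6 of the 8 endothelial, 5 of the 6 cardiomyocyte and all 5 erythroid genes. Of the 6 fibroblast genes 2 were higher, and of the 6 leukocyte genes 2. The T cell gene Cd3e was listed at 0 throughout. The highest cardiomyocyte and erythroid sums belong to ECp53KO_170. The part of these cells in the results below was not tested.

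Trp53 was the member with the largest difference, and Mdm2 came next. Trp53 (Entrez 22059, chromosome 11, 69580348 to 69591873) had 4.41 and 2.45 FPKM in ECp53KO_170 and ECp53KO_172, against 52.1 and 28.8 FPKM in Ctrl_178 and Ctrl_182. Both ECp53KO values lie far below both Ctrl values. On the median length of the coding transcripts of Trp53 these levels come to roughly 91 and 43 fragments in ECp53KO and 1035 and 1173 fragments in Ctrl, so RNA counted to Trp53 was not absent from the sorted cells. Levels are given per gene and the exons removed are not stated, so whole and shortened transcripts cannot be told apart. The mean in ECp53KO was 8.47% of that in Ctrl. Between single libraries the share ran from 4.69% to 15.3%.

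Part of that spread runs along Xist, the RNA of the inactive X chromosome in females. Xist was at 0.0230 FPKM in ECp53KO_170 and 0.0352 FPKM in Ctrl_178, and at 23.0 FPKM in ECp53KO_172 and 23.9 FPKM in Ctrl_182. In each group the library with little Xist had the higher Trp53. ECp53KO_170 held 8.46% of the Trp53 level of Ctrl_178, and ECp53KO_172 held 8.50% of that of Ctrl_182. With 1 library of each kind in a group, sex and library cannot be told apart.

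The log2 fold change of Trp53 on the log2(FPKM + 1) scale was -3.20 ± 0.36 (SE, 95% confidence interval -4.12 to -2.28). Its unadjusted limma p was 0.000259, the 20th smallest of 11332 genes, and its limma adjusted p was 0.146. With small RNA loci left out of the fit the adjusted limma p was 0.0127, with robust shrinkage 0.0412, and with sex as shown by Xist as a term 0.0208. It was above the threshold with a pseudocount of 0.1 (0.0877), after rescaling to TPM (0.0664), with no intensity trend (0.208) and with no filter on low values (0.62), and over all alternatives that kept 4 libraries it ran from 0.0127 to 0.62. In bulk RNA, fewer cells that carry a transcript and less of it per cell cannot be told apart. Trp53 shares no exon bases with another GENCODE gene. Wrap53, which encodes a telomerase component and starts head to head with Trp53, stood at 6.01 and 4.97 FPKM in ECp53KO, against 6.76 and 6.17 FPKM in Ctrl (limma adjusted p = 0.870).

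The p53 paralogs were at or near 0 in both groups. Trp63 (Entrez 22061, chromosome 16, 25683763 to 25892088) was listed at 0 FPKM in all 4 libraries. Trp73 (Entrez 22062, chromosome 4, 154056249 to 154139875) was listed at 0 in ECp53KO_170, ECp53KO_172 and Ctrl_178 and at 0.0170 FPKM in Ctrl_182, about 1 fragment. On the median coding length, 3 fragments would be worth 0.0717 and 0.0832 FPKM of Trp63 in ECp53KO and 0.0742 and 0.0361 FPKM in Ctrl, and 0.127 and 0.148 FPKM of Trp73 in ECp53KO and 0.132 and 0.0642 FPKM in Ctrl. These limits cover counting error only, and a listed 0 can be a failed estimate. Trp73 shares 280 exon bases with Trp73os on the opposite strand, which was not analysed here. Both genes failed the filter of a mean of 1 FPKM and were not tested. No paralog RNA above these limits was detectable in ECp53KO or in Ctrl.

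**Figure D1:**
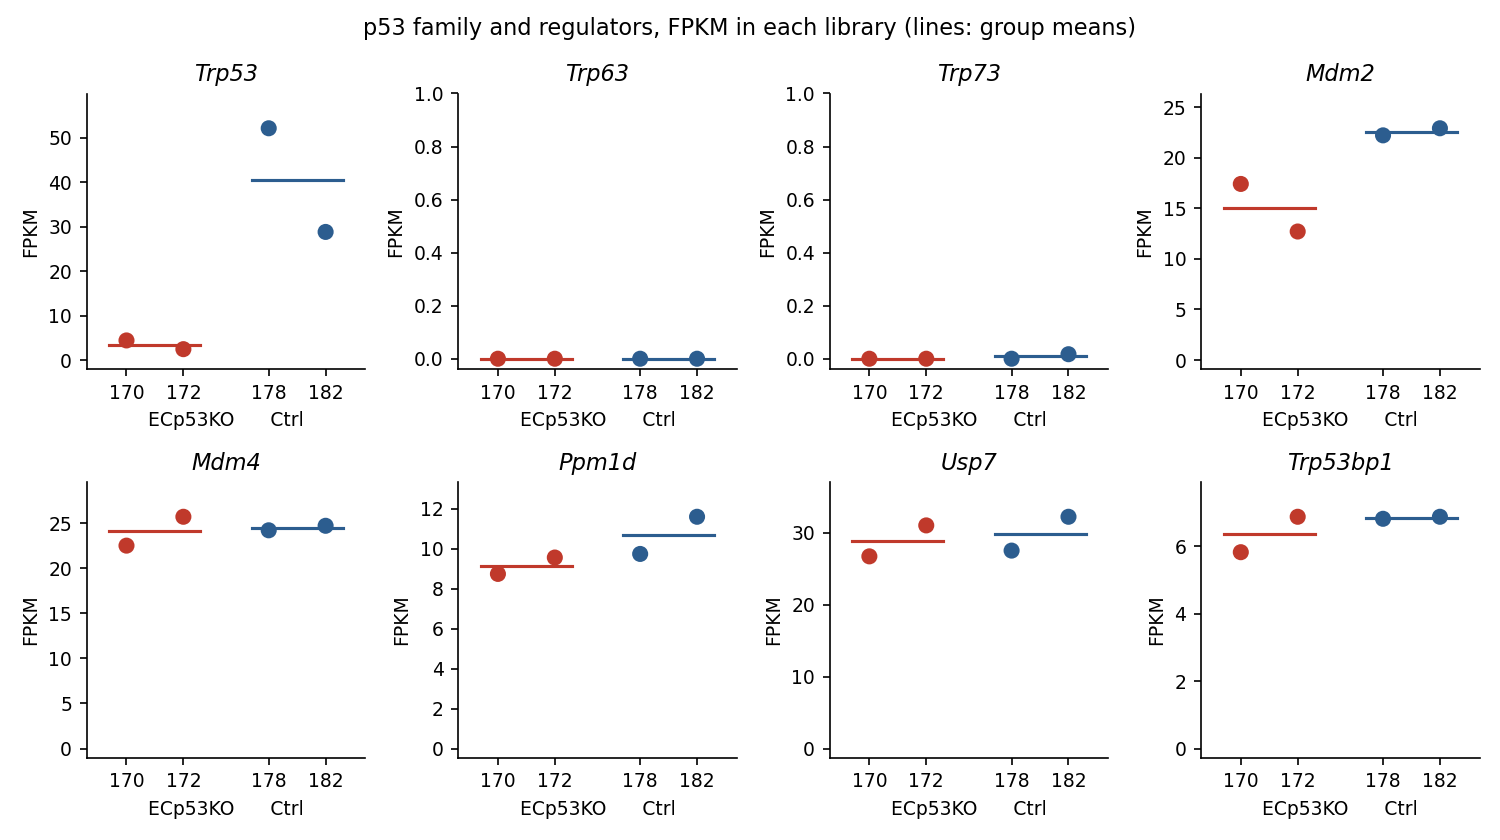
Level of each of the 8 genes in FPKM (vertical axes start at 0 and differ between panels) in libraries ECp53KO_170 and ECp53KO_172 (red) and Ctrl_178 and Ctrl_182 (blue), with lines at the group means. Trp53 lies at 2.45 to 4.41 FPKM in ECp53KO, against 28.8 to 52.1 FPKM in Ctrl, Mdm2 is also separated, and Trp63 and Trp73 lie at or near 0.

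Of the 8 genes, 6 passed the filter and were tested. At a limma adjusted p under 0.05, 0 of the 6 were higher and 0 lower in ECp53KO, against 0.0265% and 0.0882% of all tested genes. At an unadjusted limma p under 0.05, 0 were higher and 2 lower (Trp53 and Mdm2), against 1.97% and 2.82%. Both ECp53KO libraries lay above both Ctrl libraries in 0 of the 6 and below them in 3 (Trp53, Mdm2 and Ppm1d), against 19.1% and 16.8% of all tested genes. All 6 fold changes were negative, as were 48.3% of all, but 4 of them were close to 0. The place of Trp53, the gene lost in ECp53KO, among the lower genes follows from the genotype.

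Of the MDM genes, Mdm2 lay below Ctrl in both ECp53KO libraries, and the values of Mdm4 overlapped. Mdm2 (Entrez 17246, chromosome 10, 117688875 to 117710758) had 17.4 and 12.7 FPKM in ECp53KO_170 and ECp53KO_172, against 22.2 and 22.9 FPKM in Ctrl_178 and Ctrl_182. The ECp53KO libraries are both lower than either control and differ more from each other than the controls do. Its means were 15.1 ± 3.30 FPKM in ECp53KO, against 22.5 ± 0.506 FPKM in Ctrl (n = 2 each, SD), so 0.669 of the Ctrl level was present in ECp53KO. The log2 fold change was -0.56 ± 0.19 (SE, 95% confidence interval -1.06 to -0.07). Its unadjusted limma p was 0.0320 and its limma adjusted p 0.864. The fold change was -0.78 without ECp53KO_170 and -0.35 without ECp53KO_172, so it was larger where ECp53KO_172 was kept.

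Mdm4 (Entrez 17248, chromosome 1, 132986105 to 133030587) had 22.5 and 25.7 FPKM in ECp53KO, against 24.2 and 24.7 FPKM in Ctrl. The Ctrl values lie between those of ECp53KO. The log2 fold change was -0.02 ± 0.15 (SE, limma adjusted p = 0.984). The 95% confidence interval, -0.41 to 0.36, takes in a change of Mdm4 of either sign and of a size between these bounds.

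Set against each other within a library, where scaling between libraries plays no part, Mdm2 and Mdm4 outweighed Trp53 in ECp53KO and not in Ctrl. The ratio of Mdm2 to Trp53 in FPKM was 3.95 and 5.21 in ECp53KO and 0.425 and 0.795 in Ctrl. The ratio of Mdm4 to Trp53 was 5.11 and 10.5 in ECp53KO and 0.463 and 0.859 in Ctrl. Both ratios are above 1 in each ECp53KO library and below 1 in each Ctrl library. Trp53, the denominator of both, is the gene lost in ECp53KO, so a rise of these ratios follows from the genotype. The log2 fold changes of Mdm2 and Mdm4 themselves were -0.56 and -0.02. Mdm4 and Mdm2 were close to equal in Ctrl, with Mdm4 to Mdm2 ratios of 1.09 and 1.08, against 1.29 and 2.02 in ECp53KO. The mean log2 ratio of Mdm4 to Mdm2 was 0.69 ± 0.45 in ECp53KO and 0.12 ± 0.01 in Ctrl (n = 2 each, SD), a difference of 0.58. It was 0.89 without ECp53KO_170 and 0.26 without ECp53KO_172. A permutation test of 2 against 2 libraries cannot give a two-sided p below 0.333, so the ratios are given without one.

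**Figure D2:**
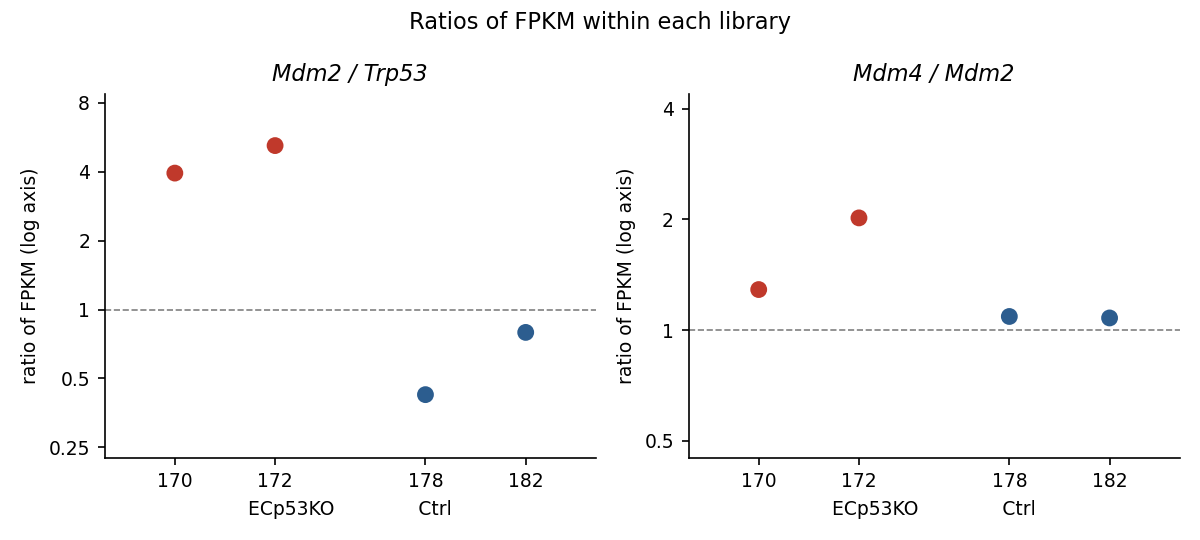
Ratio of Mdm2 to Trp53 (left) and of Mdm4 to Mdm2 (right) in FPKM, on log axes, in the ECp53KO (red) and Ctrl (blue) libraries, with a dashed line at equal levels. Mdm2 to Trp53 is 3.95 and 5.21 in ECp53KO and under 1 in Ctrl, and Mdm4 to Mdm2 is 1.29 and 2.02 in ECp53KO and 1.09 and 1.08 in Ctrl. Trp53 is the gene lost in ECp53KO, so the rise on the left follows from the genotype.

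The phosphatase, deubiquitinase and adaptor genes showed small differences. Ppm1d (Entrez 53892, chromosome 11, 85311254 to 85347071) had 8.74 and 9.56 FPKM in ECp53KO, against 9.74 and 11.6 FPKM in Ctrl. The groups do not overlap, but the nearest libraries, ECp53KO_172 and Ctrl_178, are almost level. Its log2 fold change was -0.20 ± 0.17 (SE, 95% confidence interval -0.63 to 0.24, limma adjusted p = 0.870). Ppm1d lies on the same chromosome as Trp53.

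Usp7 (Entrez 252870, chromosome 16, 8688722 to 8757067) had 26.7 and 31.0 FPKM in ECp53KO, against 27.5 and 32.2 FPKM in Ctrl. The groups overlap, and the log2 fold change was -0.04 ± 0.17 (SE, 95% confidence interval -0.47 to 0.38, limma adjusted p = 0.969). Trp53bp1 (Entrez 27223, chromosome 2, 121194835 to 121296354) had 5.82 and 6.87 FPKM in ECp53KO, against 6.81 and 6.87 FPKM in Ctrl. ECp53KO_170 is the low library and the other 3 are level, with a log2 fold change of -0.10 ± 0.17 (SE, 95% confidence interval -0.54 to 0.34, limma adjusted p = 0.925). Trp53bp1 shares 2130 exon bases with Tubgcp4, a gamma-tubulin complex gene on the opposite strand, and the libraries keep no strand, so some fragments of this pair cannot be told apart. Tubgcp4 stood at 7.47 and 6.52 FPKM in ECp53KO, against 6.52 and 6.58 FPKM in Ctrl.

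**Figure D3:**
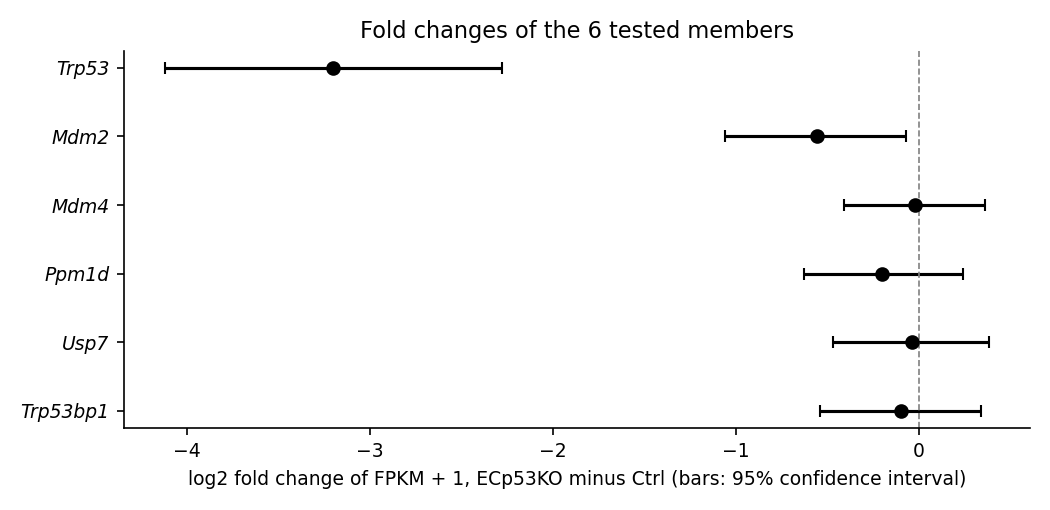
Log2 fold change of FPKM + 1, ECp53KO minus Ctrl, of the 6 tested genes, with 95% confidence intervals from limma. The intervals of Trp53 (-4.12 to -2.28) and Mdm2 (-1.06 to -0.07) lie below 0, before any adjustment, and the other 4 span 0.

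The order of the 6 detected members by level differed between the groups in the place of Trp53. In ECp53KO the means ran from Usp7 (28.9 ± 3.02 FPKM) through Mdm4 (24.1 ± 2.23), Mdm2 (15.1 ± 3.30), Ppm1d (9.15 ± 0.578) and Trp53bp1 (6.35 ± 0.741) to Trp53 (3.43 ± 1.39), with SD and n = 2 throughout. No neighbours in that order overlapped. In Ctrl they ran from Trp53 (40.5 ± 16.5 FPKM) through Usp7 (29.8 ± 3.33), Mdm4 (24.4 ± 0.389), Mdm2 (22.5 ± 0.506) and Ppm1d (10.7 ± 1.33) to Trp53bp1 (6.84 ± 0.0413). The ranges of Trp53 and Usp7 overlapped in Ctrl, and those of the other neighbours did not.

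Wider regulators of p53 were read from 7 lists that together hold 100 genes, of which 99 are in the table and 92 were tested. At a limma adjusted p under 0.05, 0 were higher and 0 lower. At an unadjusted limma p under 0.05, 2 were higher and 6 lower, against 1.97% and 2.82% of all tested genes. Without overlap, 14 of the 92 lay above and 19 below Ctrl, against 19.1% and 16.8% of all, so the counts without overlap are near the background. Their median log2 fold change was -0.01, and that of all tested genes 0.01. The list that departed most was that of p53 targets that act back on p53 or its paralogs.

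Of 12 tested genes in that feedback list, 0 were higher and 5 lower at an unadjusted limma p under 0.05, against 1.97% and 2.82% of all tested genes. Without overlap, 1 lay above and 6 below Ctrl, against 19.1% and 16.8% of all. The median log2 fold change was -0.47. The list holds known p53 targets and was put together with earlier results of these data known, so its direction is no independent evidence. Phlda3, which encodes an inhibitor of AKT, had 8.96 and 8.66 FPKM in ECp53KO, against 58.8 and 37.2 FPKM in Ctrl (log2 fold change -2.28 ± 0.25, limma adjusted p = 0.125). Trp53inp1, which encodes a nuclear protein that promotes p53 phosphorylation, had 6.07 and 4.65 FPKM in ECp53KO, against 13.2 and 12.2 FPKM in Ctrl (limma adjusted p = 0.638). Ccng1, whose product cyclin G1 recruits a phosphatase to MDM2, had 14.7 and 15.9 FPKM in ECp53KO, against 30.0 and 25.2 FPKM in Ctrl (limma adjusted p = 0.864). In these 3 genes the groups are well apart, while the ubiquitin ligase gene Rchy1 of the same list had 20.6 and 19.0 FPKM in ECp53KO, against 16.2 and 18.1 FPKM in Ctrl. The most abundant gene of the list, the antiproliferative Btg2, had 327 and 303 FPKM in ECp53KO, against 261 and 444 FPKM in Ctrl, with overlap.

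Kinases of p53 or MDM proteins had a median log2 fold change of 0.05 over 13 tested genes. Of these, 0 were higher and 1 lower at an unadjusted limma p under 0.05, against 1.97% and 2.82% of all tested genes. That gene was the stress kinase Plk3, at 18.1 and 17.4 FPKM in ECp53KO, against 25.6 and 27.5 FPKM in Ctrl (log2 fold change -0.56 ± 0.15, limma adjusted p = 0.864), which is also in the feedback list. Hipk2, which phosphorylates p53 in its activation domain, had 1.17 and 1.71 FPKM in ECp53KO, against 2.41 and 2.70 FPKM in Ctrl, and the casein kinase gene Csnk1d 38.3 and 40.9 FPKM in ECp53KO, against 48.0 and 48.3 FPKM in Ctrl (limma adjusted p = 0.864 for both). Akt1, which phosphorylates MDM2, was the most abundant, at 147 and 136 FPKM in ECp53KO, against 139 and 129 FPKM in Ctrl.

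Ubiquitin ligases and deubiquitinases of p53 or MDM proteins, the list nearest in function to Mdm2 and Usp7, spanned log2 fold changes of -0.24 to 0.20 over 16 tested genes. Their median was 0, with 0 genes at an unadjusted limma p under 0.05 in either direction. The chaperone-linked ligase gene Stub1 was the most abundant (63.3 and 48.7 FPKM in ECp53KO, 53.8 and 47.9 FPKM in Ctrl). Trim24, another p53 ligase, had 18.2 and 20.6 FPKM in ECp53KO, against 21.5 and 21.7 FPKM in Ctrl, and Huwe1 16.6 and 23.4 FPKM in ECp53KO, against 24.2 and 22.1 FPKM in Ctrl.

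The list named MDM2-binding inhibitors holds mostly proteins of the nucleolus and ribosome. It had a median of 0.23 over 9 tested genes, 1 of them negative (Mtbp, log2 fold change -0.05). Rpl5 had 450 and 337 FPKM in ECp53KO, against 289 and 302 FPKM in Ctrl, and Rpl11 1560 and 954 FPKM in ECp53KO, against 1020 and 932 FPKM in Ctrl. ECp53KO_170 is the highest library for both, and both have processed copies in the genome that could share their fragments. At an unadjusted limma p under 0.05, 1 gene of the list was higher and 0 lower, against 1.97% and 2.82% of all tested genes. That gene was the nucleolar Rrp8, at 10.3 and 7.90 FPKM in ECp53KO, against 6.35 and 5.81 FPKM in Ctrl (limma adjusted p = 0.864), and Gnl3, which encodes nucleostemin, had 12 and 16.1 FPKM in ECp53KO, against 12.2 and 9.40 FPKM in Ctrl. Cdkn2a, whose p19Arf product binds MDM2, was at 0.337 and 0 FPKM in ECp53KO, against 0.468 and 0.512 FPKM in Ctrl and was not tested.

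p53 cofactors and modifiers had a median of -0.05 over 23 tested genes. Of these, 0 were higher and 1 lower at an unadjusted limma p under 0.05, against 1.97% and 2.82% of all tested genes. Ppp1r13l, which encodes iASPP, an inhibitor of p53, had 8.62 and 13.2 FPKM in ECp53KO, against 17.9 and 16.9 FPKM in Ctrl (log2 fold change -0.66 ± 0.23, limma adjusted p = 0.864). Banp, a nuclear matrix protein gene, had 6.59 and 7.98 FPKM in ECp53KO, against 5.25 and 4.86 FPKM in Ctrl, and Ing2, of the inhibitor of growth family, 4.12 and 3.44 FPKM in ECp53KO, against 4.65 and 6.19 FPKM in Ctrl. The methyltransferase gene Prmt1 was the most abundant, at 80.4 and 57.9 FPKM in ECp53KO, against 61.5 and 51.6 FPKM in Ctrl.

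The relatives of Ppm1d, the other PP2C phosphatases, had a median of -0.07 over 13 tested genes, with 0 at an unadjusted limma p under 0.05 in either direction. Phlpp1, which dephosphorylates AKT, had 11.7 and 18.9 FPKM in ECp53KO, against 22 and 22.2 FPKM in Ctrl, Ppm1j 6.39 and 9.5 FPKM in ECp53KO, against 17.0 and 8.55 FPKM in Ctrl, and Ilkap 56.1 and 51.6 FPKM in ECp53KO, against 44.4 and 49.5 FPKM in Ctrl. Ppm1f was the most abundant relative, at 79.4 and 107 FPKM in ECp53KO, against 108 and 95 FPKM in Ctrl, above Ppm1d in every library.

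Genes of the 53BP1 pathway had a median of 0.01 over 14 tested genes. Of these, 1 was higher and 0 lower at an unadjusted limma p under 0.05, against 1.97% and 2.82% of all tested genes. Dynll1, the dynein light chain that binds 53BP1, had 196 and 185 FPKM in ECp53KO, against 132 and 140 FPKM in Ctrl (log2 fold change 0.48 ± 0.16, limma adjusted p = 0.864). H2afx, the histone variant marked at breaks, had 12.6 and 15.7 FPKM in ECp53KO, against 20.6 and 17.7 FPKM in Ctrl. Shld1, a shieldin subunit listed under the symbol 1110034G24Rik, had 8.22 and 6.42 FPKM in ECp53KO, against 5.02 and 4.89 FPKM in Ctrl.

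**Figure D4:**
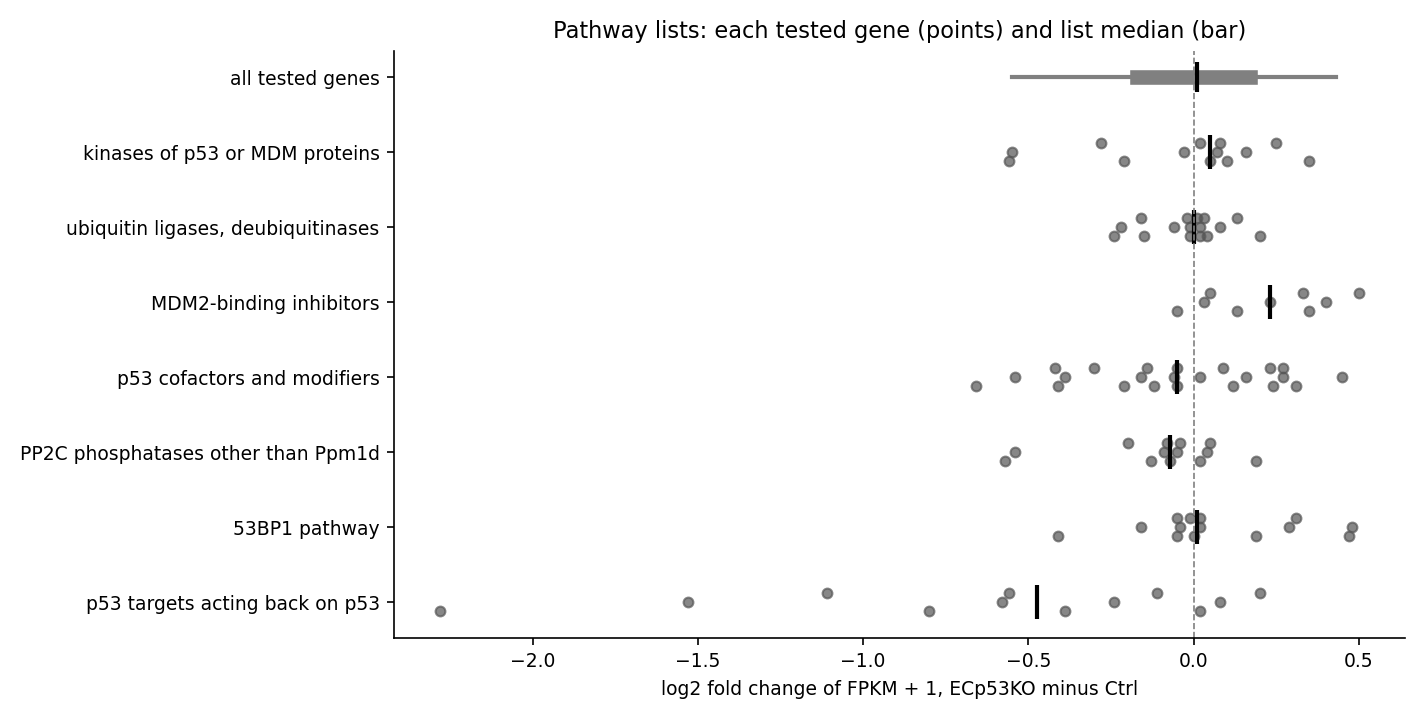
Log2 fold change of FPKM + 1, ECp53KO minus Ctrl, of each tested gene (points) in 7 lists of p53 regulators, with the list median as a vertical bar, below all tested genes (thin line: 5th to 95th percentile, -0.55 to 0.43, thick line: quartiles). The list of p53 targets that act back on p53 has its median at -0.47 and reaches -2.28, and the other medians lie between -0.07 and 0.23.

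Genes with the profile most like that of Trp53 and of Mdm2 were sought by the distance between their log2(FPKM + 1) values in the 4 libraries, each gene centred on its mean, among 11089 genes with no value of 0. These are descriptions of 4 shared libraries. Nearest to Trp53 were Phlda3 (distance 1.02), the TNF receptor gene Eda2r (1.36), Sesn2 (1.42), Fam64a (1.68) and Gtse1 (1.70). Gtse1 had 0.491 and 0.225 FPKM in ECp53KO, against 4.70 and 1.68 FPKM in Ctrl, and Fam64a 2.19 and 1.41 FPKM in ECp53KO, against 10.3 and 4.74 FPKM in Ctrl. As in Trp53, each of these 5 genes was highest in Ctrl_178 and lowest in ECp53KO_172. They were picked for closeness to that profile, so this shared order is no separate result about Trp53.

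Nearest to Mdm2 were the lipin gene Lpin2 (distance 0.0394), Frat2 (0.0608), the sorting nexin gene Snx24 (0.0981), Tmem180 (0.115) and Nprl3 (0.119). Lpin2 had 4.09 and 2.79 FPKM in ECp53KO, against 5.22 and 5.41 FPKM in Ctrl. The pattern of Mdm2 was level in the controls and lower in ECp53KO_172 than in ECp53KO_170. These genes, which lie at other levels, were picked for closeness to that pattern, so their closeness is no separate result about Mdm2.

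**Figure D5:**
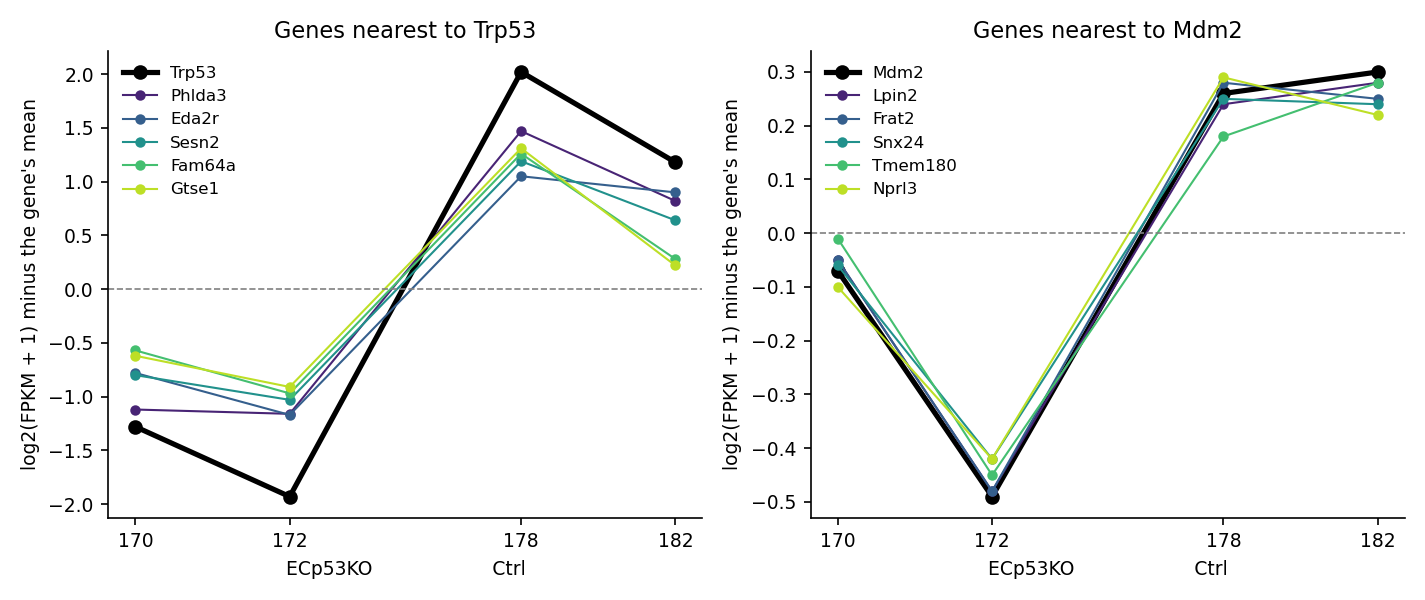
Log2(FPKM + 1) minus each gene's own mean in ECp53KO_170, ECp53KO_172, Ctrl_178 and Ctrl_182, for Trp53 (left, black) and Mdm2 (right, black) with the 5 genes nearest to each. Lines only join the values of 1 gene. Trp53 spans -1.93 to 2.02 and the genes nearest to it span less, while those nearest to Mdm2 (-0.49 to 0.30) follow it closely.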

How the data were processed

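RNA of 4 libraries, 2 per genotype, was compared. Per the labels' protocols, polyadenylated RNA was sequenced in read pairs without strand. The authors deposited FPKM per gene symbol. Tools listed without roles in the submitters' processing notes are TopHat2 2.1.0, Cufflinks 2.2.1, Trimmomatic 0.36, FastQC 0.11.5 and bcl2fastq 2.17, with the build mm10. The sources used here state neither the annotation nor filters.

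FPKM are not counts, so log2(FPKM + 1) was tested two-sided with limma 3.58.1 (R 4.3.3) and its intensity trend, over the 11332 genes averaging 1 FPKM or more, with Benjamini-Hochberg adjustment (threshold 0.05). The fit had 2 residual and 3.15 prior degrees of freedom and was tested on simulated data. Depth comes from the commonest value of FPKM times length in 1037 low genes with 1 GENCODE M21 transcript, taken as 1 fragment. Positions and promoters are RefSeq's (GRCm38.p6), and 23143 symbols matched directly and 1086 by a synonym, with 117 unmatched.

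The members and lists were chosen with earlier results of these data known. Named are all members, from each list the 3 genes with the smallest p and the most abundant, and the 5 genes nearest to Trp53 and Mdm2 in profile. Alternatives changed the pseudocount, filter, scale, small RNA loci, variance model, a term for sex, transcript length and the libraries used.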

Additional observations from a re-analysis of the deposited data

How the results depend on the processing

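Among fits that kept all 4 libraries, the members called lower (0 in the fit as reported) were 1, Trp53, in 3 alternatives. These were small RNA loci left out, robust shrinkage and sex shown by Xist as a term. The log2 fold change of Trp53 was -3.20 in these 3 (limma adjusted p = 0.0127, 0.0412 and 0.0208). It was -3.53, -2.88, -2.79 and -3.62 without ECp53KO_170, ECp53KO_172, Ctrl_178 and Ctrl_182, with small RNA loci kept or left out. Over all 18 alternatives it ran from -3.62 to -2.79, with a limma adjusted p of 0.0127 to 0.62 where all 4 libraries were kept. The other 5 tested members were called in none of the 18. Mdm2 (-0.78 to -0.35) and Ppm1d (-0.31 to -0.08) were negative in all of them, while Mdm4 was positive in 3, Usp7 in 5 and Trp53bp1 in 3. Over all genes, 3 were called higher, against 5 with a pseudocount of 0.1, 1 with no filter on low values, 5 with robust shrinkage, 1 to 21 without 1 library, and 5, 9, 12 and 6 without each library, in the same order, and small RNA loci. The 10 called lower became 4 with small RNA loci left out, 12 to 58 without 1 library, and 4, 12, 17 and 18 without each library and small RNA loci. Without a library its group keeps 1, which is assumed to vary like the other group. Rescaling to TPM moved the median of all genes to -0.10, against 0.01. Removing the transcript length trend or the median shift was added after seeing the data. The causes of these shifts were not tested. No paired analysis was possible because no library number occurs in both genotypes, so the labels pair no libraries. With 2 libraries a group, the Xist term above acts as a pairing made from the data, of ECp53KO_170 with Ctrl_178 and of ECp53KO_172 with Ctrl_182.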

Other observations

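Other genes whose symbol begins with Trp53 were looked up after the results were known. Trp53cor1, the long noncoding RNA known as lincRNA-p21, was at 0.0279 and 0 FPKM in ECp53KO, against 0.668 and 0.439 FPKM in Ctrl, below the filter and not tested. Trp53tg5 was at 0 in both ECp53KO libraries, against 0.117 and 0.114 FPKM in Ctrl, also below the filter and not tested. Trp53rkb, not tested either, was at 0.425 and 0.444 FPKM in ECp53KO, against 0.342 and 0.363 FPKM in Ctrl. Trp53i13 had 13.9 and 11.4 FPKM in ECp53KO, against 12.8 and 16.6 FPKM in Ctrl, with overlap. Trp53inp2, an autophagy gene, had 20.2 and 31.8 FPKM in ECp53KO, against 34.7 and 43.0 FPKM in Ctrl (log2 fold change -0.59 ± 0.26, limma adjusted p = 0.864). Trp53bp2, which encodes the p53 cofactor ASPP2, had 5.98 and 4.96 FPKM in ECp53KO, against 7 and 6.86 FPKM in Ctrl (limma adjusted p = 0.864). Trp53i11 was the most abundant of them, at 86.7 and 162 FPKM in ECp53KO, against 177 and 154 FPKM in Ctrl, with ECp53KO_170 low and the other 3 libraries close. Trp53rka, a kinase of the KEOPS complex, was the tested gene with both ECp53KO values above Ctrl, at 7.92 and 9.55 FPKM in ECp53KO, against 7.59 and 6.15 FPKM in Ctrl (limma adjusted p = 0.864).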
